A study of Mus musculus with 6 samples.

Results

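Binding of the transcription factor RUNX1 was examined around 10 genes of prolactin signalling and luteal function, out of 21900 protein-coding genes of the RefSeq gene table. The genes were Prlr, Jak2, Stat5a, Stat5b, Cish, Socs2, Socs3, Akr1c18, Ptgfr and Parm1, and all 10 were found in the table by symbol. A peak was counted for a gene when its summit, the position of highest signal, lay inside the gene or within 50 kb of either end. Chromatin immunoprecipitation with a RUNX1 antibody followed by sequencing (ChIP-seq) had been done on granulosa cells, the somatic cells around the oocyte, of 21 days old CBA x C57BL/6 F1 mice. All groups share a protocol in which 5 IU of equine chorionic gonadotropin (eCG) makes follicles grow and 5 IU of human chorionic gonadotropin (hCG), given 46 h later, triggers ovulation. The pre-ovulatory group (0 h after hCG) and the peri-ovulatory group (6 h after hCG) held 2 RUNX1 libraries each, with 1 pooled input per time point that entered only through the peak calls. The protocol text in the labels describes the 6 h collection alone, so the 0 h group rests on its title and time label. How many animals went into a library is not given in the sources used here, and nothing says that replicates came from separate collections, so their spread may be technical. Peak lists hold no expression values, and the labelled cell type was therefore not checked against marker genes.

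Prolactin acts through the prolactin receptor, encoded by Prlr, and the associated kinase JAK2, which phosphorylates the transcription factors STAT5A and STAT5B. STAT5 in turn drives genes of the SOCS family, among them Cish, whose products dampen the same receptor. In rodents prolactin maintains the corpus luteum, the gland that granulosa cells form after ovulation, and represses Akr1c18, which encodes an enzyme that inactivates progesterone. Prostaglandin F2 alpha, through the receptor encoded by Ptgfr, ends the life of that gland.

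The 4 peak lists held 948 and 3135 peaks in 0 h replicates 1 and 2 and 18761 and 28671 peaks in 6 h replicates 1 and 2, and all counts near genes scale with these lengths. Fold enrichment over the local background and its p-value are the authors' values for each peak. From them the number of reads stacked at each summit (the pileup) and the background were recovered, and the genome-wide background came to 2.77, 2.65, 2.76 and 2.13 reads per position in the same order. Pileup divided by this background, called depth-scaled pileup here, has a common scale across libraries in terms of depth, though not of the efficiency of the immunoprecipitation. At the genome-wide background a peak needed a depth-scaled pileup of at least 6.50, 6.41, 6.52 and 7.50 to be listed. Ranks are percentiles of fold within the library's own list and are not compared between lists.

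RUNX1 peaks lay around 9 of the 10 genes in 6 h replicate 1 and around all 10 in replicate 2, but around 1 (Cish) and 6 of them in the 0 h libraries. Among all protein-coding genes the corresponding shares were 69.3% and 76.1% at 6 h and 9.42% and 28.2% at 0 h. Together the gene windows, which cover 1445 kb, held 1 and 9 peaks in the 0 h libraries and 44 and 68 in the 6 h libraries. The lowest 6 h count was above the highest 0 h count. Mean counts were 5 ± 5.66 for the 0 h libraries and 56 ± 17.0 for the 6 h libraries (SD, n = 2 per time point), a difference of 3.64 on the log2(count + 1) scale (exact permutation test over libraries, two-sided, p = 0.33, the smallest p that 2 against 2 libraries can give). Over the whole lists the same difference was 3.75. As a share of its list, each library placed 0.105%, 0.287%, 0.235% and 0.237% of its peaks near these genes, in the order of 0 h replicates 1 and 2 and 6 h replicates 1 and 2. The share averaged 0.196% ± 0.128 in the 0 h libraries and 0.236% ± 0.00187 in the 6 h libraries (SD, n = 2 per time point; exact permutation test, two-sided, p = 1). The difference of 0.0396 percentage points turned to -0.0512 without 0 h replicate 1.

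**Figure D1:**
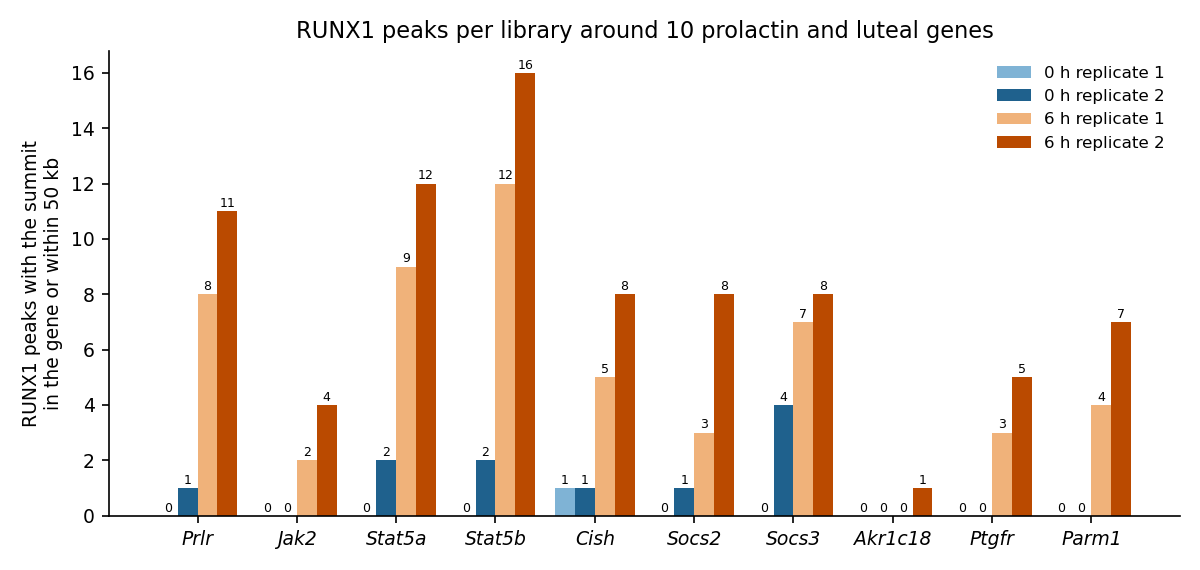
Number of RUNX1 peaks (y axis) with the summit in each gene or within 50 kb of it (x axis), 1 bar per library. Stat5a and Stat5b are neighbours and share peaks. Around Akr1c18 the only peak came from 6 h replicate 2, and around Stat5b the 6 h libraries held 12 and 16.

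Peaks of both replicates that overlapped by at least 1 bp were merged into replicated regions. At 6 h, 42 replicated regions lay near 9 of the 10 genes, beside 68.8% of all coding genes with such a region. With 948 peaks per library, the length of the shortest list, 2 regions near 3 genes were left. Without 6 h replicate 1 there were 68 regions. At 0 h, 1 region lay near 1 gene, Cish, beside 8.75% of coding genes. A peak of either 0 h library lay near 6 of the 10 genes, beside 28.6% of coding genes. The number of replicated 6 h regions per gene was 12 for Stat5b, 9 for Stat5a, 7 for Socs3, 6 for Prlr, 5 for Cish, 4 for Parm1, 3 each for Socs2 and Ptgfr, 2 for Jak2 and 0 for Akr1c18. The median was 4.50 per gene against 2 over all coding genes, whose middle 50% ran from 0 to 3. Per 100 kb of window the median was 2.23 against 0.969. By number of regions Jak2, at percentile 57.6 of coding genes, and Akr1c18, at 15.6, were the lowest of the 10, and Stat5b, at 99.7, was the highest. Inside the 50 kb limit the nearest peaks to it were those of Jak2, at 48.8 kb from the gene with 6 h folds of 7.70 and 11.2. Next came a peak of 6 h replicate 2 at 48.5 kb from Socs2, with a fold of 10.5. Outside the limit the nearest were those of Socs2, at 53.4 kb with 7.05 and 12.9.

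**Figure D2:**
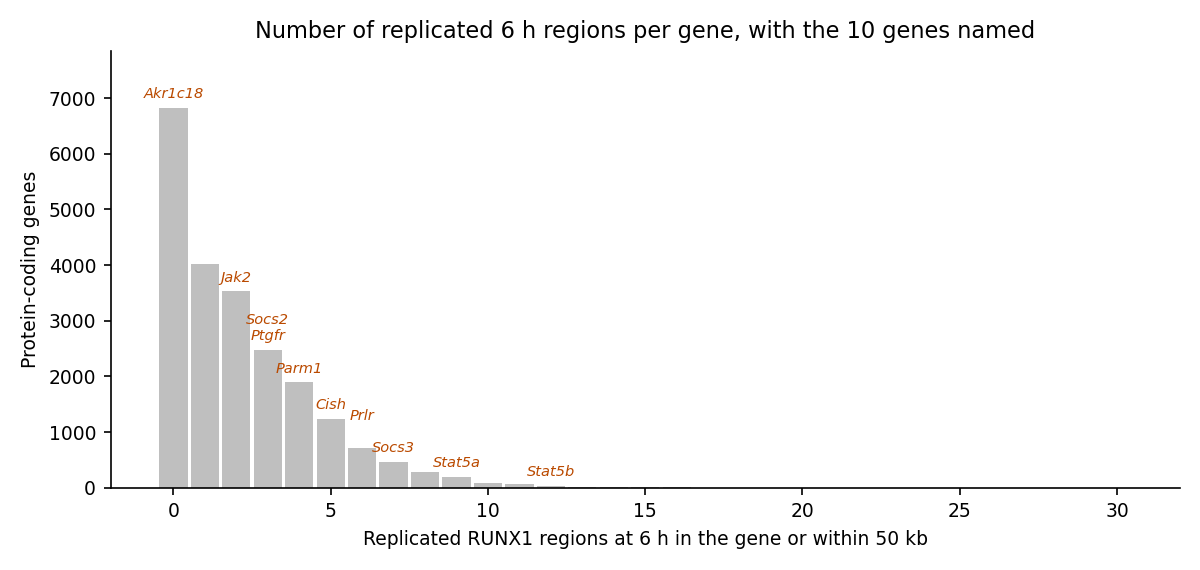
Histogram of replicated 6 h regions (x axis) per protein-coding gene (y axis, number of genes), counted in the gene and 50 kb to either side, with the 10 genes named above their bar. The names run from 0 regions for Akr1c18 to 12 for Stat5b.

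Prlr, the prolactin receptor gene, lies on chromosome 15 at 10177238 to 10349190, on the plus strand. Its highest-ranking region was outside the gene, at 10144440 to 10144957 and 32.5 kb before the outermost annotated start. The depth-scaled pileup there was 34 and 77.8 in 6 h replicates 1 and 2, with a fold of 25.3 and 53.3 (percentiles 96.5 and 99.3). Replicate 2 at 0 h had a peak at the same place with a depth-scaled pileup of 10.9 and a fold of 8.21 (percentile 66.3), and replicate 1 had none. The depth-scaled pileup at this site was thus higher in both 6 h libraries than in the 1 library at 0 h with a peak. Inside the gene, 4 replicated 6 h regions lay within the first 33.2 kb. The tallest of these, at 10180638 to 10181149 and 3.70 kb into the gene, had a depth-scaled pileup of 35.1 and 72.2 and no 0 h peak. Around the outermost start itself the 6 h libraries did not overlap each other, with peaks 1.35 kb before and 344 bp after it in replicate 2 and a peak 778 bp after it in replicate 1. The last replicated region of the window, at 10375328 to 10376061, lay inside the neighbouring gene Agxt2.

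Jak2, the kinase bound to the receptor, lies on chromosome 19 at 29251803 to 29313095 on the plus strand. Its 2 replicated regions were both without a 0 h peak. The higher-ranking lay at 29250968 to 29251521, with the summit 467 bp before the annotated start, and had a depth-scaled pileup of 30.1 and 63.8 and a fold of 14.4 and 29.0 (percentiles 83.2 and 93.4). The other was 110 kb after the start, inside Plgrkt and 237 bp from an end of Cd274. No peak of any library had its summit inside Jak2. Replicate 2 at 6 h alone listed 2 further peaks, 79 bp before the start and 89.4 kb after it, the latter inside Gm52390.

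Stat5a and Stat5b, which encode the transcription factors phosphorylated by JAK2, lie next to each other on chromosome 11. Stat5b occupies 100780731 to 100859004 on the minus strand and Stat5a 100859351 to 100885169 on the plus strand, so most of their windows coincide and Stat3 follows on the far side of Stat5a. All 9 replicated 6 h regions of Stat5a also fell in the window of Stat5b. The highest-ranking region of both lay inside Stat5b at 100842809 to 100843700, and its summit was 7.37 kb into the gene from the nearest annotated start of Stat5b. Its depth-scaled pileup was 65.6 and 89.1 in the 6 h libraries and 12.8 in 0 h replicate 2, with folds of 27.5, 40.4 and 6.00. Within the 6 h lists its peaks stood at percentiles 97.4 and 97.5. A further site inside Stat5a, at 100879128 to 100880104, had 41.7 and 68.4 at 6 h and 15.1 in 0 h replicate 2. Neither site had a peak in 0 h replicate 1.

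The promoter table lists 2 starts for each STAT5 gene, and for each gene a low-ranking replicated 6 h region overlapped the window of 1 of them. No peak of any library touched the window of the other Stat5a start at 100859656 or of the other Stat5b start at 100822570. At the Stat5a start at 100860484 the region at 100860231 to 100860688 had a depth-scaled pileup of 14.5 and 26.7 (percentiles 11.7 and 42). At the Stat5b start at 100850581 the region at 100850717 to 100851502 had 11.2 and 11.7 (percentiles 38.3 and 23.5). These windows are shown because replicated 6 h regions overlapped them, beside the other Stat5a start, which no peak touched. Each runs from 250 bases before the RefSeq start (GRCm38.p6) to 30 after it, 5′ to 3′ on the strand of the gene. Capitals mark matches to the RUNX core TGTGGT or its reverse complement ACCACA, or to the STAT5 motif TTCNNNGAA.
Stat5a start with a 6 h region, chr11:100860234-100860513, plus strand: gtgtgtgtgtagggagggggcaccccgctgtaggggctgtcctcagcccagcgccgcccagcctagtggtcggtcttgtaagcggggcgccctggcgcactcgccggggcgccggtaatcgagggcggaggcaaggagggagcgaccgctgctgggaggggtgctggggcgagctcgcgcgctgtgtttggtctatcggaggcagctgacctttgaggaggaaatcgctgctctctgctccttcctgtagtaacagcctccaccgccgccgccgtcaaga
Stat5b start with a 6 h region, chr11:100850552-100850831, minus strand: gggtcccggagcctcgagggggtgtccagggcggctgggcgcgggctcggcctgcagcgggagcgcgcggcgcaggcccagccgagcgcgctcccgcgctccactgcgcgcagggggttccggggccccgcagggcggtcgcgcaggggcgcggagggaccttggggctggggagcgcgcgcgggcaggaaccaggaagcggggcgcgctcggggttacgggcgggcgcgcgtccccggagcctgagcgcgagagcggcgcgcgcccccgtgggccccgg
Stat5a start without a peak, chr11:100859406-100859685, plus strand: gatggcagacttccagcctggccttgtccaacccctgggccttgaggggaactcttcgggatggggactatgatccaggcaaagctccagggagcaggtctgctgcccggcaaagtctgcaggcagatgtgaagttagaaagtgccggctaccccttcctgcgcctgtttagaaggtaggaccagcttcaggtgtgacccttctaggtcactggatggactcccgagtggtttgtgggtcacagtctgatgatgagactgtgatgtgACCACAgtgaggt
Of these windows, the last was the only holder of the RUNX core, which began at position 18 after the start.

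The SOCS family members dampen cytokine receptors. Cish, a direct STAT5 target, lies on chromosome 9 at 107296659 to 107302784 on the plus strand and was the only one of the 10 genes with a replicated 0 h region. The call depended on the setting, with 0 such genes in a window of 10 kb or at a −log10 q of at least 20 and 3 in a window of 100 kb. That site, at 107280379 to 107280991, was 16 kb before the start of Cish and inside Mapkapk3, whose nearest end was 9235 bp away, so which gene it belongs to was not resolved. The depth-scaled pileup was 10.8 and 15.8 in the 0 h libraries and 28.6 and 41.7 in the 6 h libraries. The authors' fold was 8.22, 11.8, 21.3 and 28.7 in the same order, and the percentiles were 57.5, 91.0, 94.0 and 93.2. Both 6 h depth-scaled pileups lay above both 0 h ones. The ratio of the means was 2.64, the lowest among the 8 sites called at both time points. No test was run on this site, since an exact permutation test on 2 against 2 libraries cannot pass 0.05. The summits at 0 h and 6 h lay 23 bp apart.

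The start of Cish itself was called only at 6 h. The region at 107296323 to 107297031 covered the start, with the summit 93 bp after it, and had 89 and 75 reads at the summit, a depth-scaled pileup of 32.2 and 35.2. The replicates were close in depth-scaled pileup, and their folds were 9.79 and 10.2 over a local background of up to 3.03 times the genome-wide one. The 3 other replicated regions around Cish ranked between percentiles 20.2 and 71.1 on average.

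Socs3 lies on chromosome 11 at 117966079 to 117970336 on the minus strand and had 4 peaks in 0 h replicate 2, the most of the 10 genes in that list, and 0 in replicate 1. All 4 fell in 3 of its 7 replicated 6 h regions. By percentile averaged over the 6 h lists, the highest-ranking region of all 10 genes was among them, at 117962083 to 117964134. In 6 h replicate 2 alone the region before Prlr ranked higher, at 99.3. The nearest gene end to the Socs3 region was that of Socs3 at 2941 bp, on the side where the gene finishes. This region spanned 2052 bp and had a depth-scaled pileup of 60.1 and 90.0 in the 6 h libraries, with a fold of 31.3 and 43.1 (percentiles 98.4 and 98). Within it 0 h replicate 2 had 2 peaks, the taller with a depth-scaled pileup of 13.2 and a fold of 6.17, its summit 408 bp from those at 6 h. A second shared region, at 117975460 to 117976632 and 6.82 kb before the start, had 39.8 and 67.0 at 6 h and 13.9 in 0 h replicate 2. The third, at 117968019 to 117969742, covered the start through its 6 h peaks, with 32.6 and 45.9. The 0 h replicate 2 peak in it, at 117968354 to 117968599, had 7.92, the lowest depth-scaled pileup of the 0 h peaks shown, and did not reach the start, since its summit lay 850 bp from those at 6 h. The remaining 4 regions lay before the start and ranked between percentiles 70.7 and 84.1 on average, and those nearest Pgs1 numbered 3.

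Socs2 lies on chromosome 10 at 95383903 to 95417321 and had 3 replicated 6 h regions, all with summits inside the gene and within 2.66 kb of its upper end. The highest-ranking, at 95416356 to 95417856, crossed that end with the summit 434 bp inside. It had a depth-scaled pileup of 49.99 and 71.7 in the 6 h libraries and 13.2 in 0 h replicate 2, with folds of 22.1, 30.2 and 7.84. The adjacent regions had 20.6 and 28.1, and 18.5 and 21.6, and no 0 h peak. The other 5 peaks around Socs2 came from 6 h replicate 2 alone.

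The start windows of Cish and Socs3 are shown because a replicated 6 h region covered each and both hold the motif TTCNNNGAA, the letters to which STAT5 is known to bind. Limits and capitals are as for the STAT5 genes.
Cish, chr9:107296409-107296688, plus strand: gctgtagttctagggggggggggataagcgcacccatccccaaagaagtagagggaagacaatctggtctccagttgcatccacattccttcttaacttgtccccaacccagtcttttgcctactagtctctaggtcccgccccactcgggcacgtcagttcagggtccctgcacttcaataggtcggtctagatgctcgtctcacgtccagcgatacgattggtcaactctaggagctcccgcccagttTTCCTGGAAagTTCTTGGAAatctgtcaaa
Socs3, chr11:117969337-117969616, minus strand: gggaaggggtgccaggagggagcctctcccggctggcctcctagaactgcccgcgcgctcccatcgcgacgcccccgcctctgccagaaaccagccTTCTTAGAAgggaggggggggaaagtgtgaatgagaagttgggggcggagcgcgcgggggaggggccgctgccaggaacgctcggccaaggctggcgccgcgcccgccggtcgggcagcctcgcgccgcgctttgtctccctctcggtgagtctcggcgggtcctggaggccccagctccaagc
The window of Cish held 2 matches, TTCCTGGAA from position 1 and TTCTTGGAA from position 12 after the start. That of Socs3 held TTCTTAGAA from position -154. Neither held TGTGGT or ACCACA.

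**Figure D3:**
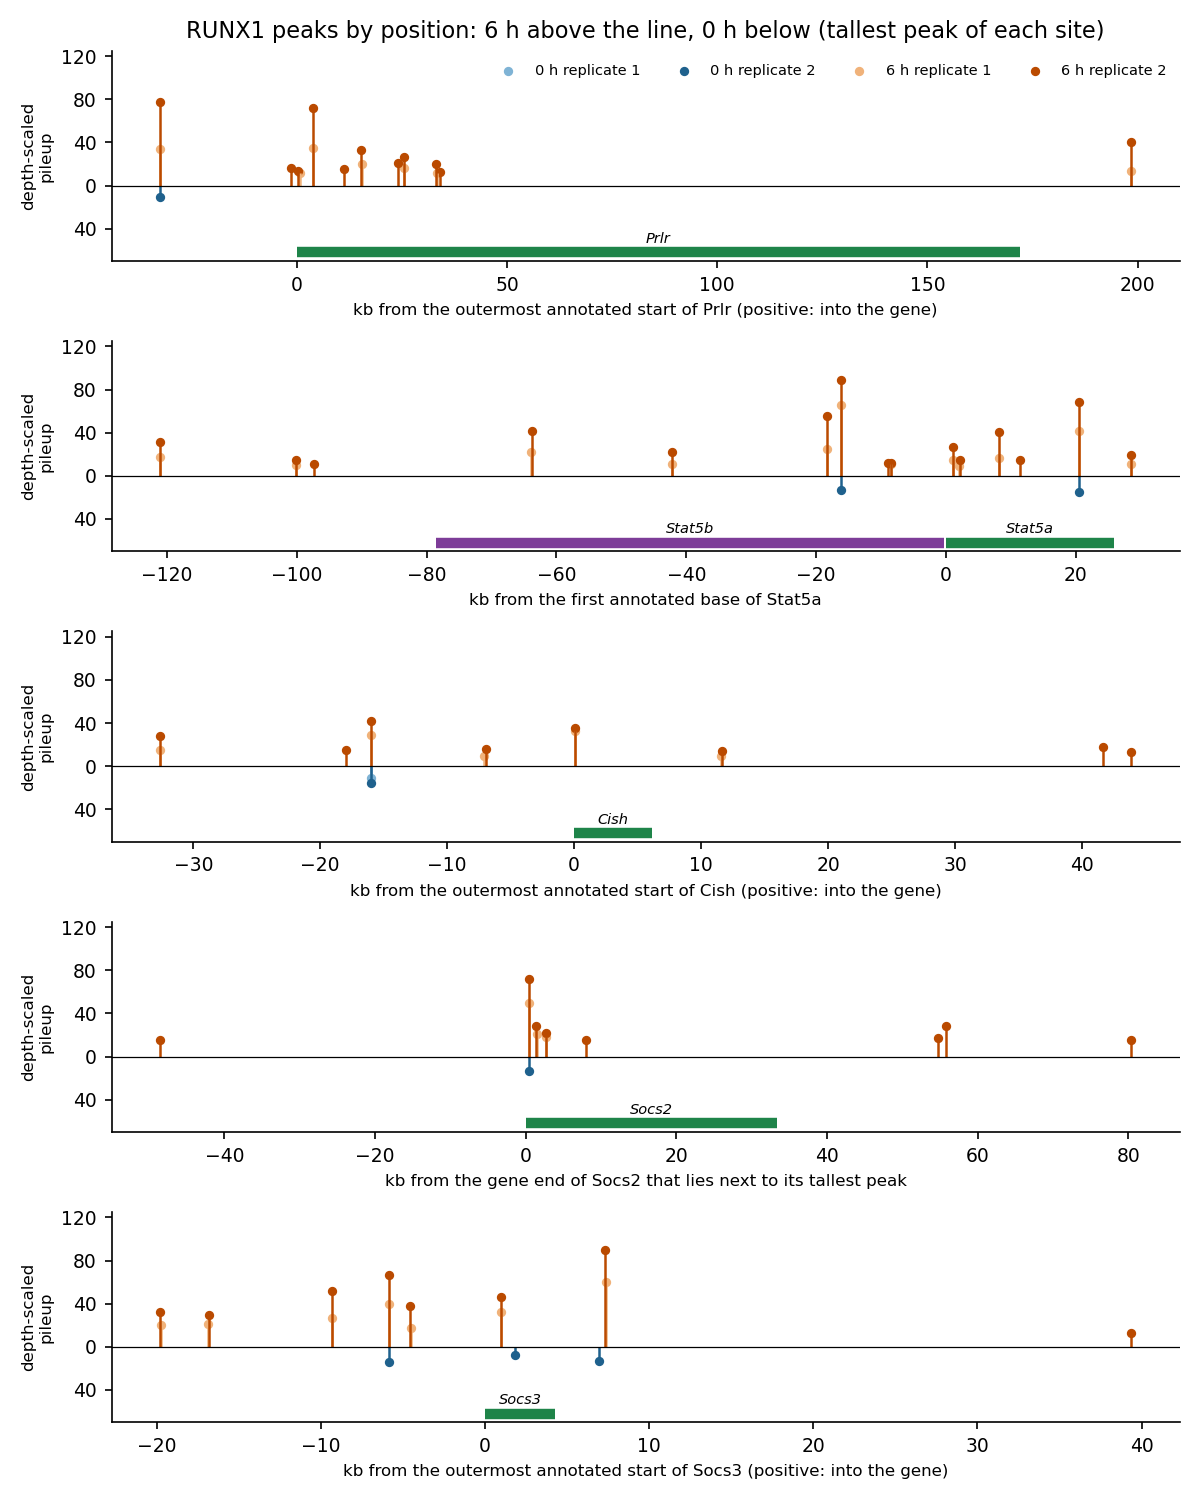
Position of RUNX1 sites (x axis, kb from the point named under each panel) and depth-scaled pileup of the tallest peak per site and library (y axis, pileup over the genome-wide background), with 6 h upward, 0 h downward and gene bodies as bars. The 0 h stems, between 7.92 and 15.8, stand opposite 6 h stems between 28.6 and 90.0.

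Around the luteal genes Akr1c18, Ptgfr and Parm1 no 0 h peak was listed, and each 6 h library held 0 to 7 peaks per gene. Akr1c18 lies on chromosome 13 at 4132615 to 4150646 on the minus strand, and its window held a single peak in the 4 lists. It was in 6 h replicate 2, at 4152961 to 4153210 and 2.42 kb before the start, with 32 reads at the summit, a depth-scaled pileup of 15 and a fold of 8.04 (percentile 25.9). The missing call in replicate 1 had a limit of at least 18 reads, which is the limit at the genome-wide background. In replicate 2 the local background at this site was 3.10 reads, above the genome-wide 2.13. Akr1c18 has related neighbours (Akr1c14 and Akr1c13), and how reads that match several copies were treated is not given in the sources used here.

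Ptgfr, on chromosome 3 at 151798610 to 151837528 on the minus strand, had 3 replicated 6 h regions. The highest-ranking lay 21.4 kb into the gene at 151815756 to 151817012, with a depth-scaled pileup of 15.9 and 35.6 and a fold of 11.1 and 22.1 (percentiles 69.6 and 87.7). The others lay 3.36 kb and 8.76 kb before the start, the latter 69 bp from an end of Gm31596. A peak at the start was listed in replicate 2 only, with a depth-scaled pileup of 11.3.

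Parm1, on chromosome 5 at 91517700 to 91624011 on the plus strand, had 4 replicated 6 h regions, of which 2 lay inside the gene. The tallest, at 91565378 to 91565895 and 48.0 kb into the gene, had a depth-scaled pileup of 26.1 and 53.9 and a fold of 17.3 and 33.3 (percentiles 89.2 and 95.6). A region 388 bp after the start had 10.1 and 13.6. For the 3 luteal genes the best mean percentile was 92.4 for Parm1 and 78.7 for Ptgfr, with no replicated region for Akr1c18.

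Merging the peaks of all 4 lists gave 68 separate sites around the 10 genes. Of these, 42 were called in both 6 h libraries, 25 in 6 h replicate 2 alone and 1 in 6 h replicate 1 alone. Only 8 had a 0 h peak, and each of them was among the 42. A single site, that of Cish, was called in all 4 libraries, and 7 were called in 0 h replicate 2 and both 6 h libraries. At the 8 sites the depth-scaled pileup was 10.8 in 0 h replicate 1 (1 site), 7.92 to 15.8 in 0 h replicate 2, 28.6 to 65.6 in 6 h replicate 1 and 41.7 to 90.0 in 6 h replicate 2. Over all such sites of the series the ranges were not compared, and at these 8 those of 0 h and 6 h did not overlap. The ratio of the 6 h mean to the 0 h mean, taken over the libraries with a peak, was between 2.64 and 6.03 with a median of 4.79. At 2 of the Socs3 sites it sets 0 h and 6 h peaks side by side whose summits lay 408 and 850 bp apart, and at the other sites these lay at most 67 bp apart. Over all 2835 sites of the series with peaks in both 6 h libraries and at 0 h the median ratio was 3.50, with a middle 50% from 2.58 to 4.57. The highest ratio was at the site inside Stat5b and the lowest at the Cish site.

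For each of the 6 genes with a 0 h peak, the highest-ranking 6 h region was a site with a 0 h peak. Stat5a and Stat5b share 1 such region, and the share over all coding genes with a 0 h peak was not computed. Of the other genes counted below, Socs7 and Cyp11a1 had a 0 h peak, but not at their highest-ranking 6 h region. The best mean percentiles of the 6 genes lay between 93.6 and 98.2. Those of the 3 genes with 6 h regions but no 0 h peak lay between 78.7 and 92.4. The 8 regions with a 0 h peak had a median mean percentile of 94.9 at 6 h against 60.3 for the 34 without. Across all replicated 6 h regions these medians were 84.2 and 54.4. Of the 42 regions, 34 overlapped no 0 h peak, or 81.0% (exact Clopper-Pearson 95% CI 65.9 to 91.4, counting error only), beside 83.5% of all replicated 6 h regions. At 18 of the 34, the lower 6 h value was at least 2 times the depth-scaled pileup that a 0 h call would have needed. That limit takes the local background to stand in the same ratio to the genome-wide one as at 6 h. The same count was not made over all replicated 6 h regions, so whether 18 of 34 is usual was not tested. At the other sites of the 34, such as those at the starts of Stat5a and Parm1, the lower 6 h value was less than 2 times that limit. At any of the 34, a 0 h signal smaller than the limit would not have been listed.

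**Figure D4:**
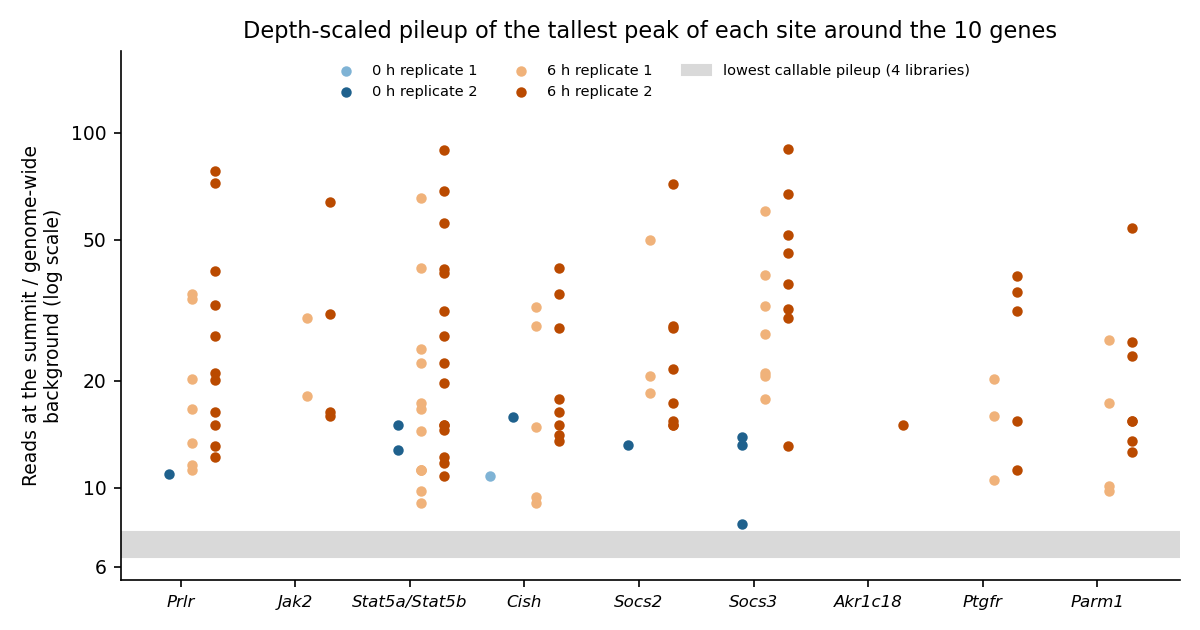
Depth-scaled pileup (y axis, log scale) of the tallest peak per site and library, by gene (x axis). The grey band marks the lowest values a call could have at the genome-wide background, from 6.41 to 7.50, and 6 h replicate 2 reaches 90.0 at Socs3.

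The 6 h replicates differed in height as well as in number. At all 42 sites called in both, the depth-scaled pileup was higher in replicate 2, by a median factor of 1.72 (range 1.04 to 3.04), and over all 17190 replicated regions of the series the median factor was 1.61. The 25 sites found only in replicate 2 had a depth-scaled pileup of 10.8 to 28.6, with a median of 15. Where both replicates had a peak, their summits lay a median of 26.5 bp apart.

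The positions of the 42 regions relative to genes were compared with those of all replicated 6 h regions. Summits lay within 1 kb of an end of any annotated gene in 13 of the 42, or 31.0% (exact Clopper-Pearson 95% CI 17.6 to 47.1), beside 50.8% of all replicated 6 h regions. With ends of protein-coding genes alone the share was 23.8% against 45.2%, and within 5 kb of any gene end it was 52.4% against 69.2%. The regions of a gene share a window, so they are not independent, and the difference was not tested. Inside an annotated gene lay 31 of the 42, or 73.8% (95% CI 58.0 to 86.1), beside 71.3%, and 21 lay inside 1 of the 10 genes. For 11 regions the nearest end of a protein-coding gene belonged to another gene, such as Pgs1, Mapkapk3, Agxt2 or Stat3. The gene table holds whole genes, and exons and introns were not separated.

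RefSeq promoter windows were found for 9 of the 10 genes, all but Socs2, with 13 starts in all. A replicated 6 h region overlapped a window of 4 of the 9 (Stat5a, Stat5b through its replicate 2 peak, Cish and Socs3), beside 37.7% of the 17492 coding genes with a window. Peaks of 6 h replicate 2 alone touched those of Jak2, Ptgfr and Parm1. The RUNX core TGTGGT, searched on both strands, was in 1 of the 13 windows and in 13.9% of the 21263 windows of coding genes. It was in 10.7% of those overlapped by a replicated 6 h region. The longer form TGTGGTTN, which contains the core, was in 0 of the 13 and in 4.33% of all. The STAT5 motif TTCNNNGAA, which reads alike on both strands, was in 3 of the 13 (Cish, Socs3 and a start inside Prlr) and in 7.28% of all. The C/EBP-like motif TTGCNNAA was in 2, both of Prlr, and in 9.81% of all. A match describes the letters only, and sequence at the distal summits was not analysed here.

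Other genes of the pathway were counted from a list of 14 (Socs1, Socs7, Stat3, Ptpn1, Ptpn6, Ptpn11, Pias3, Irf1, Gab2, Shc1, Grb2, Sos1, Jak1 and Ghr). A replicated 6 h region lay near 13 of them, beside 68.8% of all coding genes, with a median of 4 per gene, and only Ghr, the growth hormone receptor gene, had none. A 0 h peak lay near 8, beside 28.6%, and a replicated 0 h region near Socs7 alone, beside 8.75%. That 0 h region lay on chromosome 11 at 97315550 to 97315915, 46560 bp from an end of Socs7, with a fold of 10.5 and 14.8. The highest-ranking 6 h regions of the list were 21683 bp from Pias3, which encodes an inhibitor of STAT proteins, with a fold of 35.2 and 45.8, and 36445 bp from Socs7, with 30.5 and 42. Stat3 followed with the region inside Stat5b described above.

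Of 14 other luteal genes (Lhcgr, Scarb1, Star, Cyp11a1, Hsd3b1, Hsd17b7, Sfrp4, Cdkn1b, Cdkn1a, A2m, Nr4a1, Fdx1, Timp1 and Vegfa), 13 had a replicated 6 h region, beside 68.8% of all coding genes, again with a median of 4, and A2m had none. A 0 h peak lay near 10, beside 28.6%, and a replicated 0 h region near 7, beside 8.75%. These 7 were Lhcgr, Scarb1, Cyp11a1, Sfrp4, Cdkn1b, Nr4a1 and Vegfa. Near Cdkn1b, which encodes a cell cycle inhibitor, 2 sites were replicated at 0 h, and the higher-ranking of them lay 2989 bp from the gene, with a fold of 19.4 and 38.9. The other, 36412 bp from the gene, was the highest-ranking at 6 h, with 54.8 and 79.5. Inside Lhcgr, the luteinising hormone receptor gene, a site with a fold of 8.43 and 9.42 at 0 h had 36.5 and 46.6 at 6 h. Near Sfrp4 a site 31926 bp from the gene had 9.26 and 11.4 at 0 h and 39.1 and 66.1 at 6 h. Near Nr4a1 a site whose 0 h summit lay 7385 bp from the gene had 11.1 and 12.9 at 0 h and 41.6 and 47.5 at 6 h. For Vegfa a site with the 0 h summit 41658 bp from the gene had 11.5 and 21.8 at 0 h and 35.1 and 47.6 at 6 h. Scarb1, the receptor that takes up cholesterol from lipoproteins, had 2 replicated 0 h regions. The higher-ranking, 48852 bp from the gene, had 9.25 and 9.33. Cyp11a1, which encodes the enzyme that begins steroid synthesis, had 1 with 8.10 and 10.1, at 10057 bp from the gene. Among the 10 genes of prolactin signalling and luteal function, by comparison, Cish alone had a replicated 0 h region within 50 kb, subject to the same dependence on the window and on the q-value. Whether the lists differ was not tested, and folds are on the scale of each list.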

How the data were processed

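Reads of 75 nt were aligned with Bowtie2 2.2.5 to mm10 and peaks were called with MACS2, per the submitters' processing notes. Each library was called separately, per the peak names in the files, with inputs that the series design describes as pooled within a time point. MACS2 settings and filters are not given in the sources used here. In the deposited lists a peak carries its fold over local background (a ratio), a −log10 p-value, a −log10 q-value and a score. The deposited score is the −log10 p times 10 without decimals and entered no result. All lists end near a −log10 p of 9. Coordinates are those of the lists, counted from 1, and the RefSeq tables are on GRCm38.p6, the assembly behind mm10.

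Pileup and background were solved from fold = (pileup + 1)/(background + 1) and the Poisson p-value. All 51515 peaks gave a whole-number pileup with a misfit of at most 0.005. The lowest background of a list is its genome-wide background, and the files give no read totals. Replicated regions were merged peaks of both replicates sharing at least 1 bp, and counts over regions use the mean of the replicates' highest summits. The distances printed for single sites use the mean over all libraries with a peak there, 0 h included. Library values were compared with exact two-sided permutation tests. Code was tested on simulated data (Python 3.11.15, scipy 1.17.1).

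The genes and lists were chosen with earlier results of these data known. All 10 genes are named. For each the highest-ranking 6 h region, replicated 0 h regions and, with no region, each peak are described. Genes of the other lists are named with values if they have a replicated 0 h region or are among the 3 of highest rank. Each of these lists had 1 further gene that is not reported here, and the counts are over the other 14. Regions at annotated starts, other sites with a 0 h peak and a few further regions were chosen after their values were seen. Alternatives were the window (10 and 100 kb), a −log10 q of at least 20, 948 peaks per library, any base in the window, summits within 100 bp, 5 kb or coding gene ends, a replicate block and each library left out.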

Additional observations from a re-analysis of the deposited data

How the results depend on the processing

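With 2 libraries against 2, the exact permutation test could not pass 0.05 under any alternative, so it says nothing about stability. The higher log2 peak count at 6 h kept its direction under all alternatives run, from 0.71 with 948 peaks per library to 4.48 with a −log10 q of at least 20, and from 2.48 to 4.80 when a library was left out. With 948 peaks per library the log2(count + 1) means were 1.29 at 0 h and 2 at 6 h, a gap of few peaks. The difference in the share of peaks near the genes was -0.0566 percentage points with a window of 100 kb, 0.158 with 948 peaks per library, 0.136 with a −log10 q of at least 20, and from -0.0512 to 0.130 when a library was left out. The number of genes with a replicated region at 0 h was 0 within 10 kb or with a −log10 q of at least 20, 3 within 100 kb, and 1 to 6 when a library was left out, where 6 is the count of 0 h replicate 2 alone. The number of 0 h regions was likewise 0, 0 and 3, and 1 to 9 without a library. With 948 peaks per library, there were 3 genes and 2 regions at 6 h, and 100% of these regions had no 0 h peak while 0% lay within 1 kb of a gene end. Without 6 h replicate 1 there were 68 regions at 6 h (range 42 to 68 when a library was left out). The share of 6 h regions with no 0 h peak was 93.3% with a −log10 q of at least 20, 97.6% when a replicated 0 h region was required, and 81.0% to 97.6% when a library was left out. The share near gene ends was 52.4% within 5 kb. The causes were not tested. The labels give both time points replicates 1 and 2, but only the number is shared. With a replicate block the log2 difference was 3.64 (exact sign-flip test, p = 0.5, the smallest possible) and the share difference 0.0396 (exact p = 1). Same-numbered libraries deviated with a correlation of -0.191 over 795 sites in all 4 lists, and a crossed pairing, chosen after seeing the data, made 0 calls as the uncrossed did. At the genome-wide background a site under 18 and 17 reads is not listed in the 0 h libraries, nor one under 18 and 16 in the 6 h libraries.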
